A study of Mus musculus with 7 samples.

Results

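Thick filament, titin and Z-disc genes encode the scaffold that holds the contractile filaments of the heart muscle cell in register. A set of 33 such genes was taken by name from the probe annotation of the arrays, out of 37325 named genes in all, and each was read through its brightest probe. All 33 passed the filter on dim probes, although Actn3 passed it only through the knockout arrays and Neb only because of the wild type arrays. Hearts of adult female mice were profiled for messenger RNA with 7 Agilent arrays of 1 colour. The knockout group has 4 arrays, titled Mutant_175, Mutant_182, Mutant_187 and Mutant_188, and the wild type group has 3 (Wild Type_181, Wild Type_183, Wild Type_189). In knockout animals, labelled Tg, tamoxifen deleted Brg1 in the adult cardiomyocyte through an MHC-driven Cre-ERT transgene on a Brm null background. Wild type animals, labelled NTg, were given tamoxifen too. The sources used here do not give their Brm status, and the transgene itself, carried by the knockout group alone, cannot be told apart from the loss of both genes. Brg1 and Brm are the alternative ATPases of the SWI/SNF chromatin remodelling complexes. Cardiomyocytes are the labelled cell type but heart is the labelled source. That the samples are separate animals is shown by nothing but the numbers in their titles, and p-values therefore reflect the spread among these arrays.

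In each sarcomere, myosin thick filaments are tied together at the M-band by the myomesins and are decorated along the A-band by the myosin binding proteins C. Titin spans from the M-band to the Z-disc. At the Z-disc, alpha-actinin crosslinks the actin filaments of neighbouring sarcomeres, and filamin, calsarcins, palladin-like proteins and LIM domain adaptors bind to it. Desmin filaments connect Z-discs with each other and with the cell membrane, and nebulins, leiomodins and formins take part in building the thin filament.

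Values below are the processed signal divided by the 75th percentile of the array, here called relative signal. Within a group they are listed in order of the title number, and relative signals of different genes cannot be compared because each probe has its own brightness. Differences (knockout minus wild type) are in log2 units with standard errors (SE), and adjusted p-values are from limma over 22971 genes. A gene is said to have risen, fallen or changed where that p was under 0.05. Of all genes tested, 42.1% changed, 16.3% upwards and 25.8% downwards. That balance depends on the scaling: rises made up 38.7% of the changed genes here, 49.5% when arrays were scaled to probes well above background on all arrays and 83.3% when scaled to spike-in RNA.

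The 33 genes split evenly, with 10 higher, 10 lower and 13 not called in knockout hearts. Their median difference was -0.05, against -0.12 over all genes tested. By fitted difference 7 rises and 9 falls were 2-fold or larger, a size reached upwards by 8.47% and downwards by 9.99% of all genes. The 7 include Actn3, for which only a bound under 2-fold can be given, so that 6 rises are measured as 2-fold or larger. Since Actn3 passed the filter only where it is high, its call supports nothing about the set, and 9 rises remain without it. Neb, counted in the 10 falls and in the 9 of 2-fold or larger, passed the filter because of the wild type arrays, where it is high. The call of Neb supports nothing about the set either. Flnc, Actn3, Myoz1, Actn1, Mybpc2, Pdlim3, Des, Sorbs2, Synpo2 and Pdlim1 rose. Myom2, Nebl, Myoz2, Cmya5, Myot, Mybpc3, Neb, Fhod3, Smyd1 and Tnni3k fell. In 21 of the 33 genes the knockout and wild type arrays did not overlap, as in 51.2% of all genes tested.

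**Figure D1:**
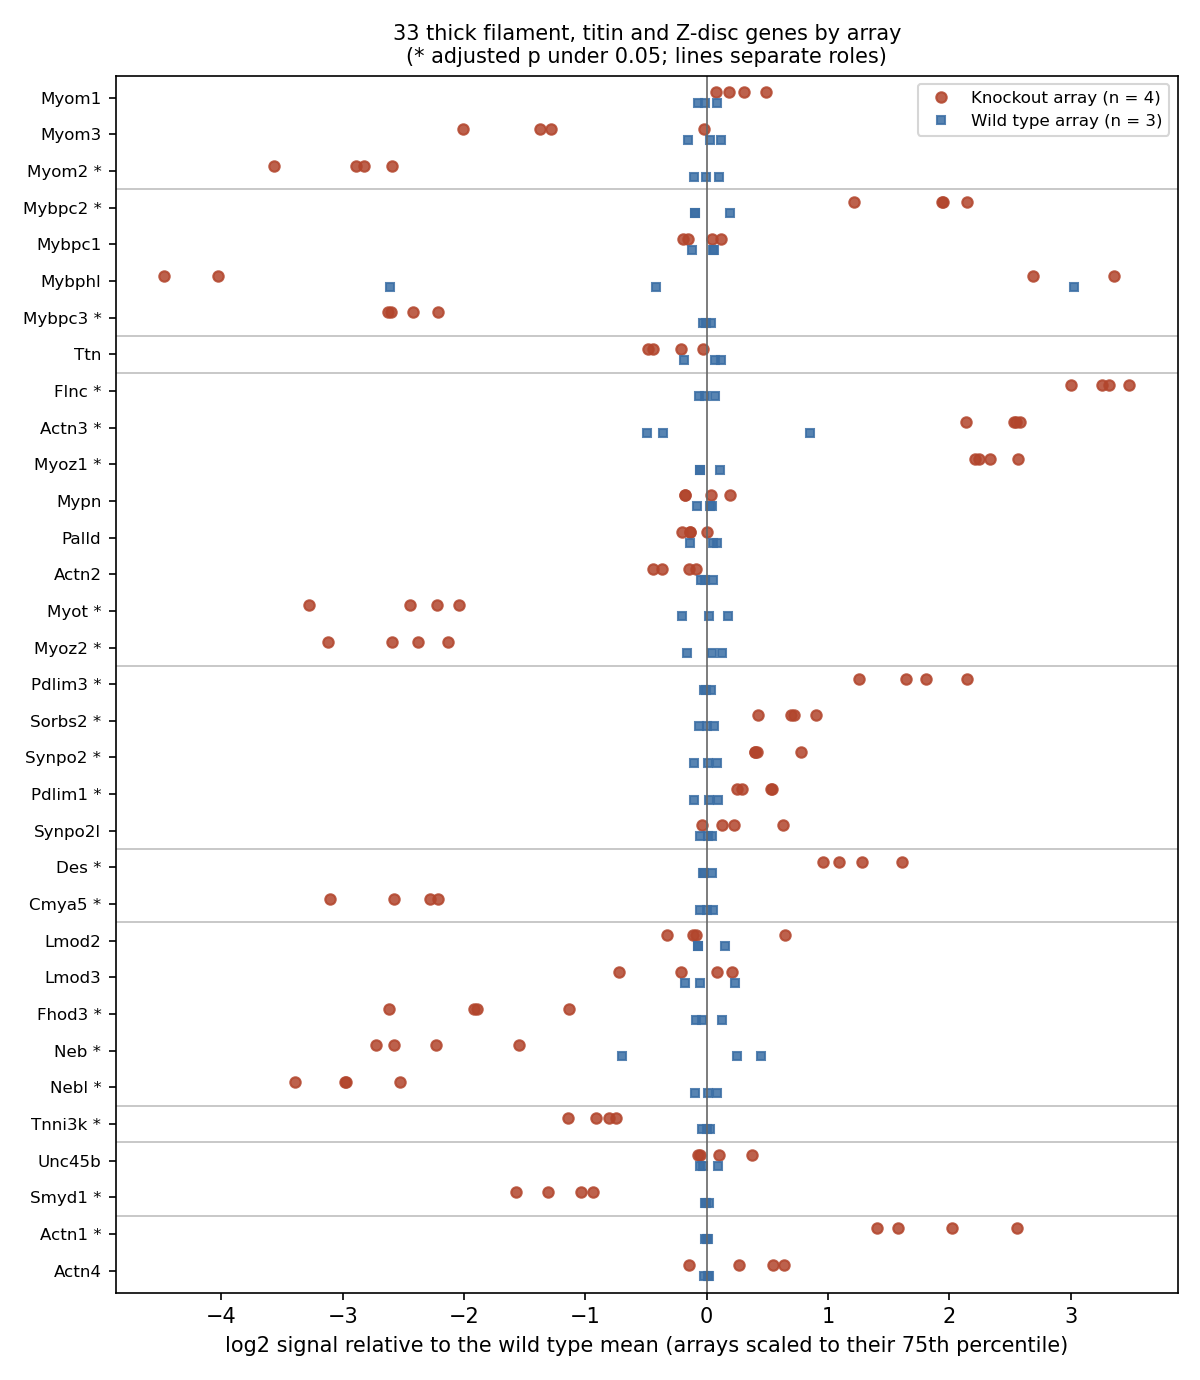
Log2 relative signal of the 33 genes on each array, minus the wild type mean of that gene, with knockout arrays as circles (n = 4) and wild type arrays as squares (n = 3). Genes are grouped by role, an asterisk marks an adjusted p under 0.05, and among the marked genes Flnc lies farthest to the right and Myom2 and Nebl farthest to the left.

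The label check gave Smarca4, the gene of Brg1, a relative signal of 5.87, 10.3, 14.9 and 8.25 in knockout hearts and 34.7, 32.8 and 34.2 in wild type hearts (difference -1.87, SE 0.29, adjusted p = 0.0021, limma). The sources used here do not name the exons removed, so the probe may lie outside the deleted part. Markers of several cell types were measured beside the members, and their part in the members' results was not tested. Of 12 cardiomyocyte markers, listed as ventricular but not all confined to the ventricle, 10 fell and 1 rose. Their summed relative signal was 2959 to 3696 in knockout hearts and 6051 to 6441 in wild type hearts. Fibroblast markers (6 of 8 higher, summed 857 to 939 in knockout against 594 to 636 in wild type) and macrophage markers (5 of 7 higher, 117 to 213 against 101 to 112) moved the other way. Smooth muscle markers summed to 419 to 514 in knockout hearts and 99.6 to 103 in wild type hearts, with 1 of 7 higher and 1 lower. Endothelial markers summed to 134 to 212 in knockout and 189.5 to 196 in wild type, with 1 of 6 lower. In whole tissue, fewer cells of a type and less RNA per cell cannot be told apart.

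The start-site regions of these genes are shown because they are where muscle transcription factors are known to bind, and because the members moved in both directions. RefSeq promoter windows of assembly GRCm38.p6, with 250 bases before and 50 after the transcript start, matched 26 of the 33 members in 35 windows. The 250 bases before the start are printed for Mybpc3 and Myoz2, which fell, Pdlim3 and Des, which rose, and Ttn, which was not called. They were picked, after their values were seen, as members with at least 1 motif match and a role in the results below. Each reads 5′ to 3′ on the strand of the gene, and capitals mark motif matches on either strand.
Mybpc3 (chr2:91117894-91118143, plus strand): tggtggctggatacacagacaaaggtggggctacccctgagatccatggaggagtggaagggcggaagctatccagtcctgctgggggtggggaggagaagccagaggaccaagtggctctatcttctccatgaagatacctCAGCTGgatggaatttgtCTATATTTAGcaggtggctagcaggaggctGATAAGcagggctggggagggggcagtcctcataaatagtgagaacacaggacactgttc
Myoz2 (chr3:123034988-123035237, minus strand): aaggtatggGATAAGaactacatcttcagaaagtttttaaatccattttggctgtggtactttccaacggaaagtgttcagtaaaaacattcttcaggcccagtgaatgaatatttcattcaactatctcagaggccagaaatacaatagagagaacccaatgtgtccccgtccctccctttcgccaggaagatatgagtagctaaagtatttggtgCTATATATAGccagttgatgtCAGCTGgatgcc
Pdlim3 (chr8:45885237-45885486, plus strand): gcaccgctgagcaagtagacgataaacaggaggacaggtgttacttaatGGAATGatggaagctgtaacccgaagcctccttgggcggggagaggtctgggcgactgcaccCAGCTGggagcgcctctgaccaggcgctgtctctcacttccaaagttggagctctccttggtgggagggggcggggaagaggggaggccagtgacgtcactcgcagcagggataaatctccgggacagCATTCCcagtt
Des (chr1:75360042-75360291, plus strand): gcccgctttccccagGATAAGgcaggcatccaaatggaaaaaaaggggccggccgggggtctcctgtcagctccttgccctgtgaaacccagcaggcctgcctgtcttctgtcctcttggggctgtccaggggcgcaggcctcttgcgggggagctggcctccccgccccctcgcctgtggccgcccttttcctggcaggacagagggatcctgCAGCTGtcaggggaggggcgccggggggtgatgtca
Ttn (chr2:76982548-76982797, minus strand): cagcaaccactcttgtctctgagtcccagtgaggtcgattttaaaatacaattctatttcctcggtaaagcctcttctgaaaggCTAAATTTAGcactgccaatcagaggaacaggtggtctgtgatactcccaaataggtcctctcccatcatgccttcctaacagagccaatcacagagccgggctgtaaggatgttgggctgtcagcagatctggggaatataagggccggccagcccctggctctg
In these 5 stretches the capitals are MEF2 sites in Mybpc3, Myoz2 and Ttn, the sites at which MEF2 factors bind in muscle. They are GATAAG, a form of the site bound by GATA factors, in Mybpc3, Myoz2 and Des. They are CAGCTG, an E-box, in Mybpc3, Myoz2, Pdlim3 and Des, and CATTCC, the core bound by TEAD factors, in Pdlim3. The longer motifs were searched by name, as the MEF2 site and the CArG box bound by serum response factor, and TGANTCA, the AP-1 site, was also searched.

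Over the full windows, a MEF2 site stood in 8 of 35 member windows (22.9%), against 3.19% of all 32851 windows in the table. By direction it was found in 3 of 6 matched genes that fell, 1 of 8 that rose and 3 of 12 that were not called. CAGCTG stood in 28.6% of member windows and in 16.3% of all. CATTCC stood in 28.6% and 14.7%, the CArG box in 5.71% and 1.63%, TGANTCA in 11.4% and 7.81%, and GATAAG in 8.57% and 7.44%. Members include genes picked for expression in muscle, windows of 1 gene can overlap, and a match is a string of letters and not a measured binding site.

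At the M-band, Myom2 fell while its relative Myom1 was not called. Myom2 encodes M-protein, which crosslinks myosin filaments in the middle of the sarcomere. It had 90.1, 73.3, 45.9 and 76.8 in knockout hearts, against 508, 544 and 585 in wild type hearts. Every knockout array lay far below every wild type array, and Mutant_187 was the lowest (difference -2.97, SE 0.23, adjusted p = 1e-04, limma). Its probe lies on chromosome 8 at 15133322 to 15133381 of build mm9, the build of the probe positions in the files.

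Myom1 encodes myomesin, the M-band crosslinker found in all striated muscle. It had 74.1, 55.5, 59.99 and 65.3 in knockout hearts and 52.3, 50.2 and 55.8 in wild type hearts. The groups overlapped by the lowest knockout array only, and the difference of 0.27 was not called (SE 0.13, adjusted p = 0.14, limma). The interval for the ratio of knockout over wild type ran from 0.973 to 1.49, and Myom1 passed the threshold under 4 of 21 alternative settings, each time upwards. Myom3, another relative, had 1.01, 0.422, 0.255 and 0.398 in knockout hearts and 1.12, 0.925 and 1.05 in wild type hearts. Mutant_175 lay within the wild type range and the other knockout arrays lay well below it. The difference of -1.17 was not called (SE 0.42, adjusted p = 0.056, limma). Leaving out Mutant_175, the highest knockout array, had to widen it, and gave -1.56 with an adjusted p of 0.0015 (limma). Under 15 of 21 alternative settings Myom3 was not called.

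Along the thick filament, the cardiac and the fast skeletal paralog of myosin binding protein C changed in opposite directions. Mybpc3 encodes the cardiac form, which tethers myosin heads and tunes contraction. It had 169, 149, 147 and 196 in knockout hearts, against 888, 927 and 904 in wild type hearts, and the knockout arrays formed a tight group below (difference -2.47, SE 0.13, adjusted p = 3e-05, limma). Its probe lies on chromosome 2 at 90976577 to 90976636 (mm9). Mybpc2, the form of fast skeletal muscle, had 3.52, 6.74, 5.86 and 5.83 in knockout hearts and 1.73, 1.42 and 1.43 in wild type hearts. All knockout arrays were higher than all wild type arrays, with Mutant_175 closest to them (difference 1.81, SE 0.23, adjusted p = 0.00085, limma).

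Mybpc1, the slow skeletal form, had 0.161, 0.152, 0.133 and 0.129 in knockout hearts and 0.136, 0.153 and 0.154 in wild type hearts. The groups overlapped throughout, and the ratio of knockout over wild type was 0.969 with a 95% interval of 0.791 to 1.19. Skeletal muscle as a tissue was checked through 12 fast skeletal muscle markers, of which 10 were tested. Of these 6 fell and 0 rose, at a summed relative signal of 5.19 to 7.05 in knockout hearts and 27.9 to 32.1 in wild type hearts, and Myh1 was not well above background on any array. The lower sum came from Atp2a1 and Cacna1s. Without them, a choice made after their values were seen, the sum over the other 8 was 2.13 to 4.50 in knockout hearts and 3.80 to 4.42 in wild type hearts, and the groups overlapped. Among the other 8, Mylpf (-0.88), Tnni2 (-1.70), Tnnc2 (-1.18) and Casq1 (-1.39) fell, and Myh4, Pvalb, Ryr1 and Tnnt3 were not called. Tnnt3 had the largest upward difference, with 0.326, 1.39, 1.56 and 0.224 in knockout hearts and 0.162, 0.205 and 0.206 in wild type hearts. All knockout arrays were higher, Mutant_182 and Mutant_187 most of all (difference 1.74, adjusted p = 0.083, limma). The part of such cells in the values of Mybpc2, Myoz1 and Actn3, all fast skeletal forms, was not tested.

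Mybphl encodes a myosin binding protein H-like protein known from the atria and the conduction system. It had 0.00825, 0.871, 1.39 and 0.00608 in knockout hearts and 1.10, 0.0220 and 0.101 in wild type hearts. Mutant_182, Mutant_187 and Wild Type_181 were high and the other arrays low, so that spread within each group exceeded the difference between them (-0.61, SE 2.33, adjusted p = 0.85, limma). It was well above background on 2 knockout and 2 wild type arrays. The atrial light chain genes Myl4 and Myl7 and the calcium pump regulator Sln were high on the same 3 arrays. The other 3 atrial markers did not follow that pattern throughout. Gja5 was lowest of all in Wild Type_181, at 0.797, and Bmp10 was near background. Dkk3 had 7.81, 15.4, 15.4 and 7.44 in knockout hearts and 6.39, 1.30 and 1.25 in wild type hearts, higher in knockout (difference 2.31, adjusted p = 0.019, limma) with the same 3 arrays highest in their groups. Myl7, the atrial regulatory light chain, had 0.354, 39.3, 59.2 and 0.117 in knockout hearts and 37.6, 0.121 and 0.823 in wild type hearts. Summed over 6 atrial markers, relative signal was 11.6 to 298 in knockout hearts and 5.40 to 113 in wild type hearts.

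**Figure D2:**
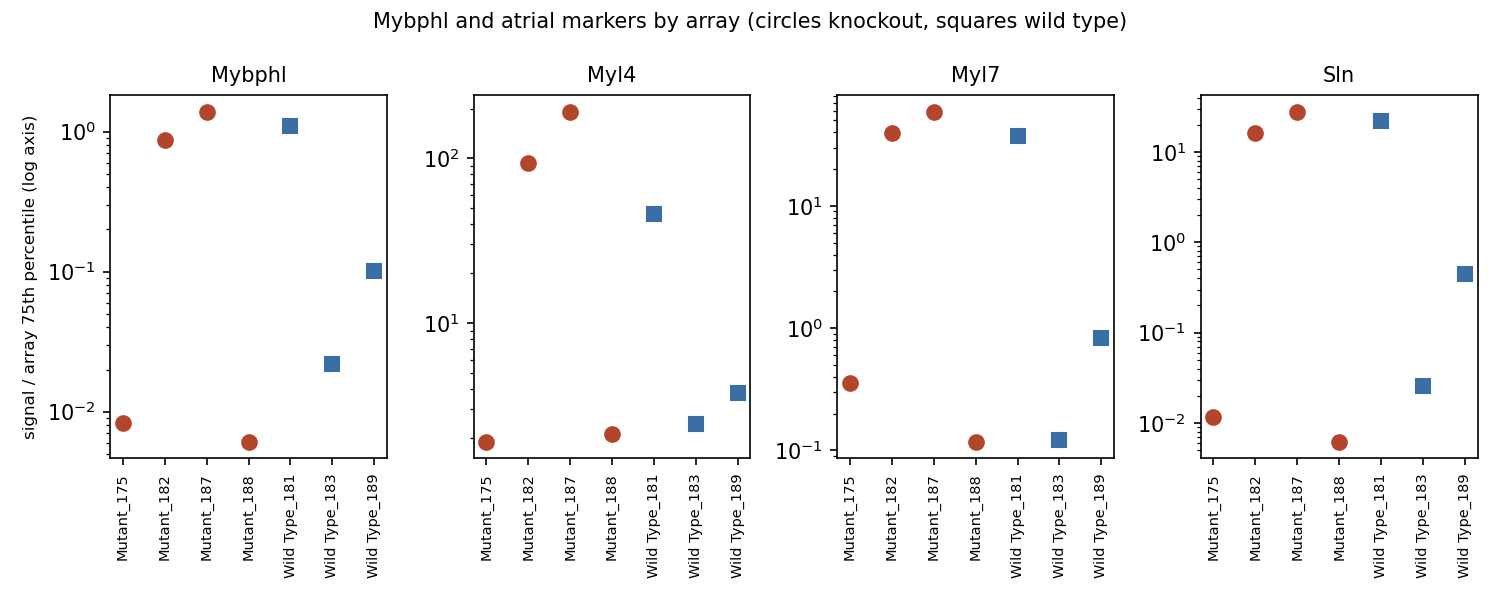
Relative signal (log axis) of Mybphl and of the atrial markers Myl4, Myl7 and Sln on each array, with circles for knockout and squares for wild type arrays. In all 4 panels Mutant_182, Mutant_187 and Wild Type_181 lie above the other arrays.

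Without these 3 arrays, a setting added with the data already seen, 7 members were higher and 9 lower, and 16 of the 20 calls were made again. A term in the fit that only marked these 3 arrays, and did not hold their measured atrial signal, was also added afterwards. With it 10 members were higher and 10 lower, and all 20 calls were made again. The 20 include Actn3 and Neb, whose calls support nothing about the set.

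Titin, the giant elastic protein that sets the resting stiffness of the sarcomere, is encoded by Ttn. It had 92.4, 105, 78.8 and 76.7 in knockout hearts and 93.9, 112 and 116 in wild type hearts. The groups overlapped and the difference of -0.29 was not called (SE 0.15, adjusted p = 0.16, limma). The ratio of knockout over wild type was 0.817 with a 95% interval of 0.639 to 1.05, which leaves out a change as large as that of Myom2 or Mybpc3. The other 5 Ttn probes, which lie between 76542655 and 76802601 on chromosome 2 (mm9), gave differences of -0.49 to 0.28 and none was called.

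Of the 8 Z-disc crosslinkers, 3 rose and 2 fell, where 16.3% of all genes tested rose and 25.8% fell. The 3 include Actn3, whose call supports nothing about these genes because of the filter. Flnc had the largest rise of the 33 genes. It encodes filamin C, an actin crosslinker of striated muscle that gathers at Z-discs and at sites of myofibril damage. Its relative signal was 264, 327, 315 and 368 in knockout hearts, against 34.5, 32.6 and 31.6 in wild type hearts, so the groups stood far apart (difference 3.27, SE 0.14, adjusted p = 1.3e-05, limma). The probe lies on chromosome 6 at 29411790 to 29411849 (mm9). A dimmer Flnc probe, at 29411288 to 29411347, had 25.0, 33.6, 38.6 and 36.3 in knockout hearts and 2.12, 1.72 and 2.08 in wild type hearts, a difference of 4.07.

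Among the alpha-actinins, the cardiac form Actn2 and the non-muscle form Actn4 were not called, while Actn1 rose and Actn3 was measured near background. Actn2, the alpha-actinin of heart Z-discs, had 465, 400, 378 and 485 in knockout hearts and 499, 535 and 511 in wild type hearts. The knockout arrays lay just below the wild type arrays without overlap, but the difference of -0.26 was not called (SE 0.13, adjusted p = 0.13, limma). A dimmer Actn2 probe gave 0.21, and with normexp background correction and quantile normalization the brightest probe gave 0.24 with an adjusted p of 0.039, the opposite sign.

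Actn1, a non-muscle alpha-actinin of stress fibres and cell contacts, had 14.4, 22.2, 32.1 and 16.3 in knockout hearts and 5.51, 5.47 and 5.39 in wild type hearts. All knockout arrays were higher, with Mutant_187 highest (difference 1.89, SE 0.27, adjusted p = 0.0014, limma), and the dimmer probe gave 1.80. Actn4, the other non-muscle form, had 10.5, 17.0, 18.1 and 14.0 in knockout hearts and 11.7, 11.4 and 11.8 in wild type hearts. Mutant_175 lay below the wild type arrays and the other knockout arrays above them, and the difference of 0.33 was not called (SE 0.19, adjusted p = 0.21, limma). Leaving out Mutant_175, the lowest knockout array, had to widen it, and gave 0.48 with an adjusted p of 0.018 (limma). Under 17 of 21 alternative settings Actn4 was not called.

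Actn3, the alpha-actinin of fast skeletal fibres, was near background. It had 0.05004, 0.0506, 0.0381 and 0.0519 in knockout hearts and 0.00615, 0.00673 and 0.0156 in wild type hearts. It was well above background on all 4 knockout arrays and on 0 of 3 wild type arrays. The fold is therefore a bound, at least 1.75-fold higher in knockout hearts. The adjusted p of 0.001 (limma) belongs to the fitted difference and not to the bound. It is no support for a rise, since the probe passed the filter only through the knockout arrays. For this bound the knockout mean was divided by the dimmest signal that still counted as well above background in wild type. It holds for the scaling used here: with normexp and quantile normalization the fitted difference was 0.41, which is below the bound (adjusted p = 0.0057, limma).

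The calsarcins, encoded by Myoz genes, bind alpha-actinin and calcineurin at the Z-disc. Myoz2, the heart and slow muscle form, had 44.8, 32.4, 22.5 and 37.8 in knockout hearts and 175.02, 214 and 202 in wild type hearts. Mutant_187 was lowest, and even the highest knockout array was far below wild type (difference -2.56, SE 0.23, adjusted p = 0.00021, limma). Myoz1, the fast skeletal form, had 0.664, 0.650, 0.707 and 0.82905 in knockout hearts and 0.135, 0.151 and 0.135 in wild type hearts. Here the knockout arrays formed a narrow group above wild type (difference 2.34, SE 0.13, adjusted p = 3e-05, limma).

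Myotilin, myopalladin and palladin are related immunoglobulin-domain proteins that bind alpha-actinin or actin. Myot, the gene of myotilin, had 3.06, 2.70, 2.32 and 1.30 in knockout hearts and 12.8, 11.0 and 14.3 in wild type hearts, with Mutant_188 lowest (difference -2.50, SE 0.29, adjusted p = 0.00058, limma). Mypn had 8.50, 7.33, 9.49 and 7.33 in knockout hearts and 7.86, 8.47 and 8.55 in wild type hearts. The ratio of knockout over wild type was 0.979 for Mypn, with a 95% interval of 0.792 to 1.21. For Palld it was 0.921, with an interval of 0.767 to 1.11, and neither was called through its brightest probe. A dimmer Palld probe was called lower, with 15.2, 13.5, 13.2 and 12.9 in knockout hearts and 17.3, 18.1 and 17.2 in wild type hearts. Its difference was -0.36 (SE 0.11, adjusted p = 0.035 over all probes above the filter, limma), and another dimmer probe gave -0.17, not called. The gap between the former and the brightest probe was not called (adjusted p = 0.14, limma).

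Comparing family members within an array removes the scaling of the array. Myoz1 minus Myoz2 ran from -6.08 to -4.99 on the log2 scale in knockout hearts and from -10.55 to -10.34 in wild type hearts, a shift of 4.90 (SE 0.27). The offset itself depends on both probes, so that only the shift is read. Mybpc2 minus Mybpc3 shifted by 4.28 (SE 0.31) and Actn1 minus Actn2 by 2.15 (SE 0.40). Myom2 minus Myom1 shifted by -3.24 (SE 0.21) and Myot minus Mypn by -2.47 (SE 0.31). Mybpc1 minus Mybpc3 shifted by 2.42 (SE 0.17). These 6 pairs had an exact two-sided permutation p of 0.029, the smallest that 35 splits of 4 and 3 arrays allow. Their adjusted p was 0.061 over 15 pairs. Actn3 minus Actn2 reached the same values, but these support nothing because Actn3 passed the filter only through the knockout arrays. No size is given for it, since Actn3 was not well above background in wild type. The adjustment over 15 pairs includes it. Of the 15 pairs, 0 passed an adjusted p of 0.05. Pdlim1 minus Pdlim3 shifted by -1.31 and Myom3 minus Myom1 by -1.44 (exact permutation p = 0.057 and adjusted p = 0.095 for each). The other 6 pairs had exact permutation p-values of 0.17 to 0.91.

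**Figure D3:**
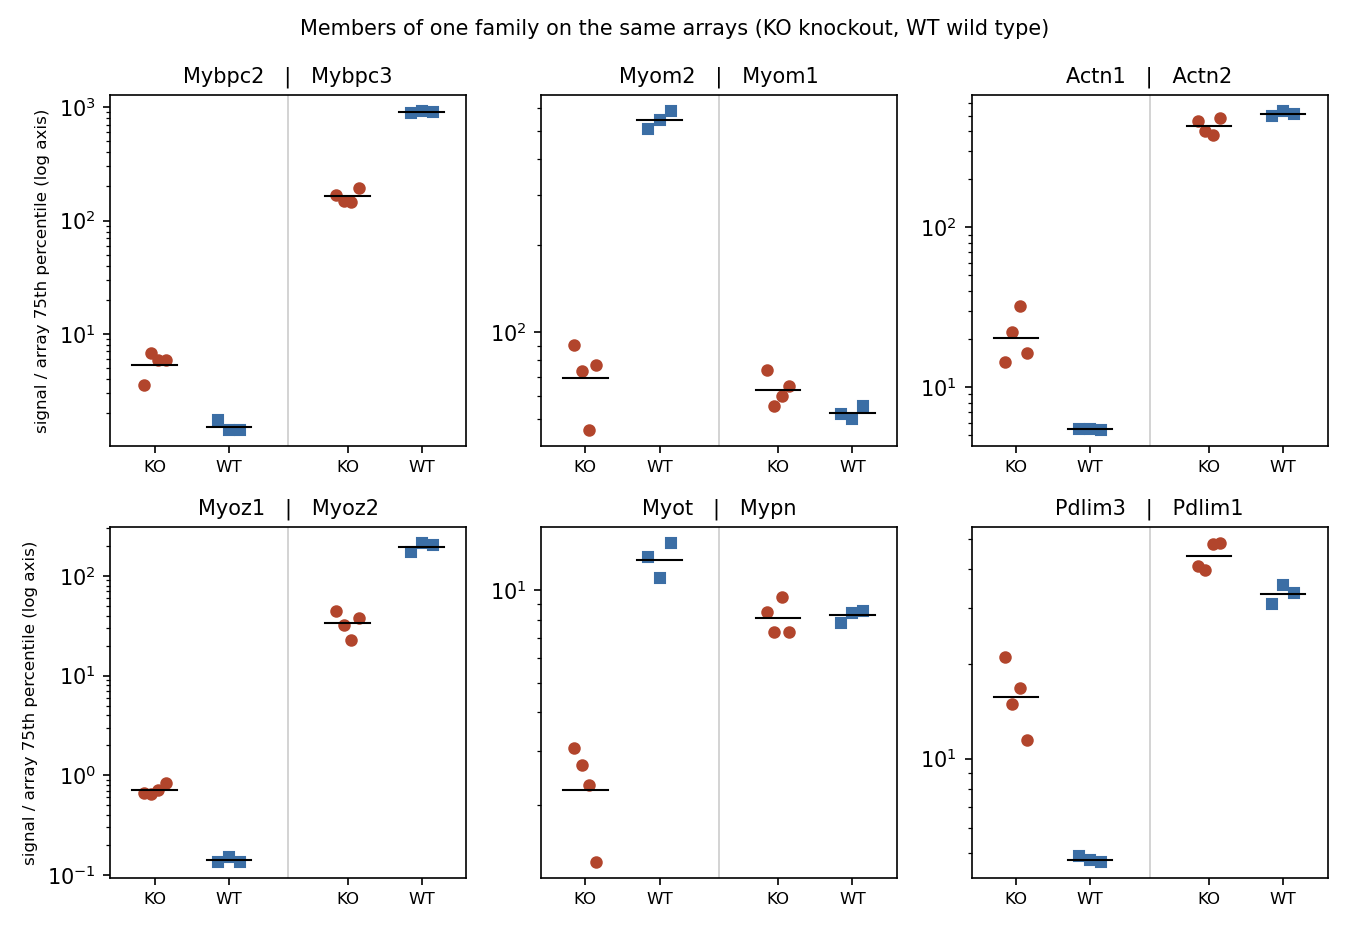
Relative signal (log axis) of 6 pairs of related genes on the same arrays, with knockout (KO) left of wild type (WT) for each gene, 1 point per array and a line at the geometric mean. Mybpc2, Actn1, Myoz1 and Pdlim3 lie higher in knockout, Mybpc3, Myom2, Myoz2 and Myot lie lower, and heights of different genes cannot be compared.

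Among the 5 LIM, SH3 and synaptopodin adaptors of the Z-disc, 4 rose and 0 fell, where 16.3% of all genes tested rose and 25.8% fell. Pdlim3 encodes ALP, a PDZ and LIM domain protein that binds alpha-actinin. It had 21.1, 14.95, 16.7 and 11.4 in knockout hearts and 4.89, 4.75 and 4.69 in wild type hearts. All knockout arrays were higher, with a wide spread among them (difference 1.71, SE 0.20, adjusted p = 0.00061, limma). Its probe lies on chromosome 8 at 47004658 to 47004717 (mm9), and a dimmer probe gave 1.32. Pdlim1, its relative, had 40.8, 39.7, 48.2 and 48.4 in knockout hearts and 30.9, 35.5 and 33.7 in wild type hearts. The groups did not overlap but the difference was small at 0.40 (SE 0.13, adjusted p = 0.035, limma), and the call was lost under 8 of 21 alternatives, including the removal of any single wild type array (adjusted p 0.07 to 0.13).

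Sorbs2 encodes an SH3 adaptor that links signalling proteins to Z-discs and stress fibres. It had 22.2, 19.6, 16.0 and 19.3 in knockout hearts and 11.4, 11.9 and 12.4 in wild type hearts, with every knockout array higher (difference 0.69, SE 0.14, adjusted p = 0.0059, limma). Synpo2, or myopodin, had 60.9, 46.8, 46.8 and 47.4 in knockout hearts and 33.1, 35.9 and 37.8 in wild type hearts. Mutant_175 stood apart above the other knockout arrays (difference 0.50, SE 0.14, adjusted p = 0.022, limma), and the call was lost when any single wild type array was left out (adjusted p 0.052 to 0.084). Synpo2l, the striated muscle relative of Synpo2, had 17.5, 15.6, 24.8 and 18.7 in knockout hearts and 16.5, 16.1 and 15.4 in wild type hearts. The groups overlapped and the difference of 0.24 was not called (SE 0.17, adjusted p = 0.29, limma).

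The intermediate filament gene Des and Cmya5 moved in opposite directions. Desmin, the product of Des, forms the filaments that join Z-discs. Des had 134, 85.5, 106.8 and 93.4 in knockout hearts and 45.4, 43.1 and 43.3 in wild type hearts, with Mutant_175 highest (difference 1.23, SE 0.17, adjusted p = 0.0011, limma). With the mean over both Des probes, the dimmer of them near background, it was 0.21 and not called (adjusted p = 0.21, limma). Cmya5 encodes myospryn, which binds desmin and alpha-actinin at the edge of the Z-disc. It had 16.4, 15.6, 8.84 and 12.7 in knockout hearts and 76.2, 72.9 and 78.7 in wild type hearts, and no knockout array came near the wild type level (difference -2.54, SE 0.22, adjusted p = 0.00016, limma).

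Of the 5 genes of nebulins and thin filament assembly, 3 fell and 0 rose, where 25.8% of all genes tested fell and 16.3% rose. The 3 include Neb, whose call supports nothing about these genes because of the filter. Nebl encodes nebulette, the small cardiac nebulin that binds actin and tropomyosin near the Z-disc. It had 4.94, 3.63, 2.70 and 3.61 in knockout hearts and 26.6, 30.2 and 28.7 in wild type hearts. All knockout arrays were far lower (difference -2.97, SE 0.20, adjusted p = 6.4e-05, limma). Its brightest probe lies on chromosome 2 at 17355541 to 17355597 (mm9), and all 5 Nebl probes above the filter fell, with differences of -2.51 to -2.97. Neb, the giant nebulin of skeletal muscle, was dim, with 0.0213, 0.0272, 0.0193 and 0.0436 in knockout hearts and 0.151, 0.0787 and 0.174 in wild type hearts. Of the 4 knockout arrays 1 had it well above background, as did all 3 wild type arrays (fitted difference -2.27, SE 0.36, adjusted p = 0.0024, limma). The probe passed the filter through the wild type arrays and its size is uncertain, since normexp and quantile normalization gave -1.03. Without the 3 arrays of high atrial marker signal its difference was -1.94, with an adjusted p of 0.066.

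Fhod3 encodes a formin that assembles cardiac actin filaments. It had 39.5, 23.0, 14.2 and 23.4 in knockout hearts and 84.6, 94.6 and 81.9 in wild type hearts. The knockout arrays differed widely from each other yet all lay lower (difference -1.89, SE 0.31, adjusted p = 0.0026, limma). The leiomodins, which nucleate actin and lengthen thin filaments, were not called. Lmod2 had 18.3, 10.8, 9.35 and 11.0 in knockout hearts and 13.0, 11.1 and 11.1 in wild type hearts, a ratio of 1.02 with a 95% interval of 0.703 to 1.48. Lmod3 had 30.6, 43.5, 58.2 and 53.3 in knockout hearts and 59.1, 48.4 and 44.6 in wild type hearts, a ratio of 0.896 with an interval of 0.612 to 1.31. Mutant_175 was the highest knockout array for Lmod2 and the lowest for Lmod3.

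The kinase gene Tnni3k and the chaperone-related Smyd1 fell by less. Tnni3k encodes a cardiac kinase that binds troponin I. It had 33.1, 29.6, 25.2 and 31.9 in knockout hearts and 56.8, 54.2 and 55.9 in wild type hearts (difference -0.90, SE 0.13, adjusted p = 0.0014, limma). The call was lost with spike-in scaling (-0.33, adjusted p = 0.15) and with the mean over its probes (-0.31, adjusted p = 0.21). Smyd1, a methyltransferase of muscle that takes part in myosin assembly, had 17.6, 13.6, 11.3 and 16.5 in knockout hearts and 33.3, 33.5 and 34.1 in wild type hearts (difference -1.21, SE 0.17, adjusted p = 0.0012, limma). The groups did not overlap for either gene. Unc45b, the myosin chaperone with which Smyd1 works in zebrafish, had 89.4, 66.5, 65.8 and 73.9 in knockout hearts and 67.4, 66.2 and 73.5 in wild type hearts. It was not called, at a ratio of 1.06 with a 95% interval of 0.848 to 1.33.

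Some members gave another picture through another probe. For 16 members at least 2 probes were well above background on all 7 arrays. The difference between the 2 brightest of these was itself tested in limma, an analysis added after the data were seen. Actn4 and Myom2 had a second probe that passed the filter but missed this condition, and were left out. That probe gave -0.65 for Actn4, not called, against 0.33 on its brightest, and -3.48 for Myom2. For Actn4 it was near background, at 0.0244 to 0.0433 in knockout hearts and 0.0414 to 0.0793 in wild type hearts. The probes differed in their change for 6 of 16 members, against 24.0% of 6629 genes with such a pair. A Des probe at 75358447 to 75358506 on chromosome 1 (mm9) had 0.0461, 0.0477, 0.0472 and 0.0431 in knockout hearts and 0.0715, 0.0980 and 0.0756 in wild type hearts. Its difference was -0.81, a fall (adjusted p = 0.0034, limma), while the brightest Des probe rose by 1.23 (difference between probes -2.05, SE 0.19, adjusted p = 0.00071, limma). The dimmer Des probe was well above background on all 7 arrays. Its signals in knockout hearts were nonetheless as low as those of Actn3, called near background above, so its fall rests on a faint signal. For Smyd1, a probe toward the start of the transcript, at 71212063 to 71212122 on chromosome 6, had 1.98, 1.32, 1.45 and 1.62 in knockout hearts and 1.46, 1.17 and 1.51 in wild type hearts. Its difference of 0.20 was not called, and it differed from the brightest probe, at 71165337 to 71165396, by 1.41 (SE 0.14, adjusted p = 0.00078, limma). Taking the mean over both probes, Smyd1 gave -0.51 with an adjusted p of 0.037.

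Tnni3k gave 0.28 on its dimmer probe and -0.90 on its brightest (difference between probes 1.18, adjusted p = 0.0028, limma). Synpo2l rose on its dimmer probe by 1.75, with 1.03, 1.89, 2.47 and 2.997 in knockout hearts and 0.565, 0.609 and 0.564 in wild type hearts. It was not called on its brightest probe, 0.24 (difference between probes 1.51, adjusted p = 0.013, limma). These Synpo2l probes lie next to each other, at 21479155 to 21479214 and 21479051 to 21479110 on chromosome 14 (mm9). For Sorbs2 and Flnc both probes rose, by unequal amounts (0.96 and 0.80 more on the dimmer probe). Exons and untranslated regions were not assigned to probes, since no mm9 gene models were used here.

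**Figure D4:**
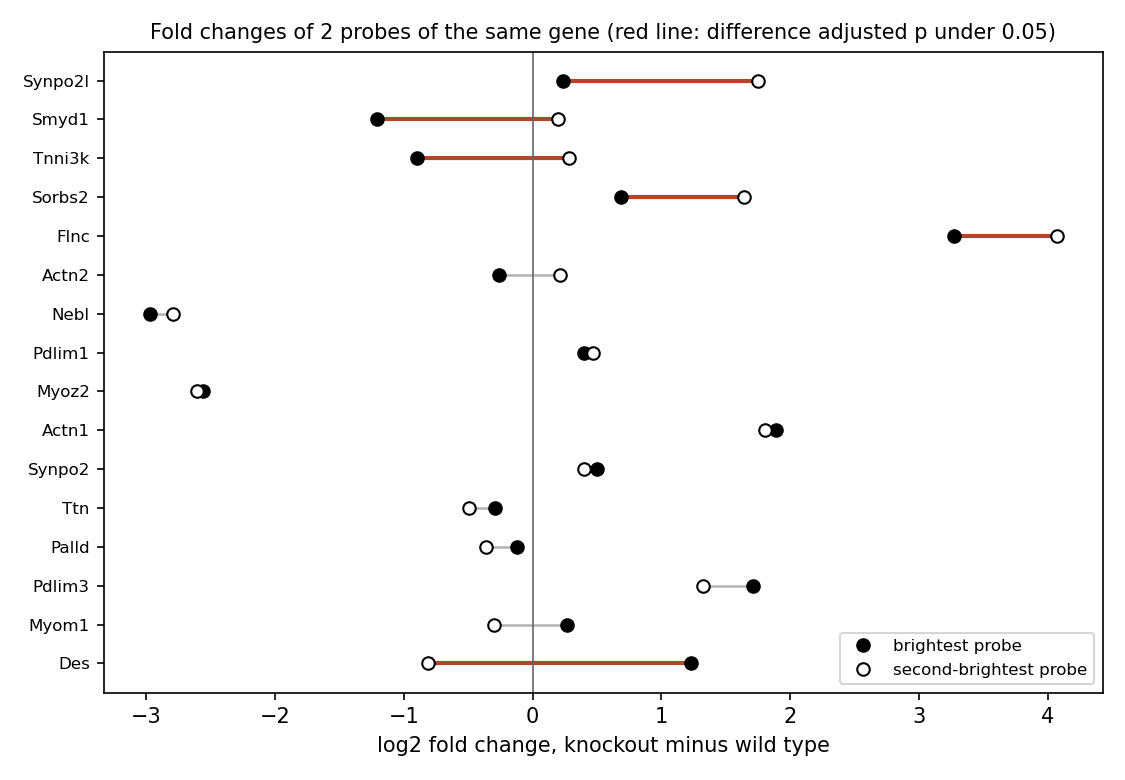
Log2 difference (knockout minus wild type) given by the brightest probe (filled) and the second-brightest probe (open) of 16 genes, joined by a line that is red where the difference between probes had an adjusted p under 0.05. The probes of Des, Smyd1 and Tnni3k lie on opposite sides of 0, as do those of Actn2 and Myom1, whose lines are not red. Those of Nebl, Myoz2 and Actn1 nearly coincide.

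The spread within groups was wider among knockout arrays. The median SD on the log2 scale was 0.28 in knockout and 0.10 in wild type for the 33 genes, and 0.26 and 0.12 for all genes tested. Mutant_187 was the lowest knockout array for 9 of the 10 members that fell, the exception being Myot. The 9 include Neb, which was well above background on only 1 knockout array, so the order of its knockout arrays is not read. Members measured on the same array are not independent of each other. Over all 5925 genes that fell and had a value on all arrays, Mutant_187 was the lowest knockout array in 44.1%. The same array kept the highest Smarca4 signal of the 4 knockout arrays, 14.9. Among the 10 members that rose, which include Actn3 near background, Mutant_175 and Mutant_188 were each the highest for 4. Over all 3744 genes that rose, Mutant_175 was the highest for 1123 and Mutant_188 for 400.

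Other genes of the sarcomere scaffold also changed in both directions. Of 48 such genes, listed with earlier results of these data known, 10 rose, 14 fell and 24 were not called. Their median difference was -0.25, against -0.12 over all genes tested, of which 16.3% rose and 25.8% fell. Whether the 48 genes differ from all genes in these shares was not tested. Among the 48, the 5 largest rises were in Xirp1, Fhl1, Klhl41, Pdlim2 and Vim. Xirp1, an actin-binding repeat protein of cell junctions in muscle, had 22.0, 16.9, 21.5 and 16.6 in knockout hearts and 3.14, 3.32 and 3.21 in wild type hearts (difference 2.57, SE 0.14, adjusted p = 3.2e-05, limma). The LIM protein gene Fhl1 rose by 1.72 and the kelch protein gene Klhl41 by 1.56. Pdlim2, a relative of Pdlim3, rose by 1.44, and Vim, the vimentin gene of mesenchymal cells, rose by 1.21.

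The 5 largest falls were in Tcap, Fbxl22, Obsl1, Tmod4 and Fhl2. Tcap encodes telethonin, the cap on the titin ends at the Z-disc. It had 74.1, 86.5, 92.3 and 156 in knockout hearts and 1058, 1189 and 1029 in wild type hearts (difference -3.48, SE 0.25, adjusted p = 8.2e-05, limma). Fbxl22, an F-box protein of the cardiac Z-disc, fell by 2.82 on the log2 scale. Obsl1, a cytoskeletal linker related to obscurin, fell by 2.37, or by 0.71 when the mean over its probes was taken. The tropomodulin gene Tmod4 fell by 2.11 and the LIM protein gene Fhl2 by 1.82.

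**Figure D5:**
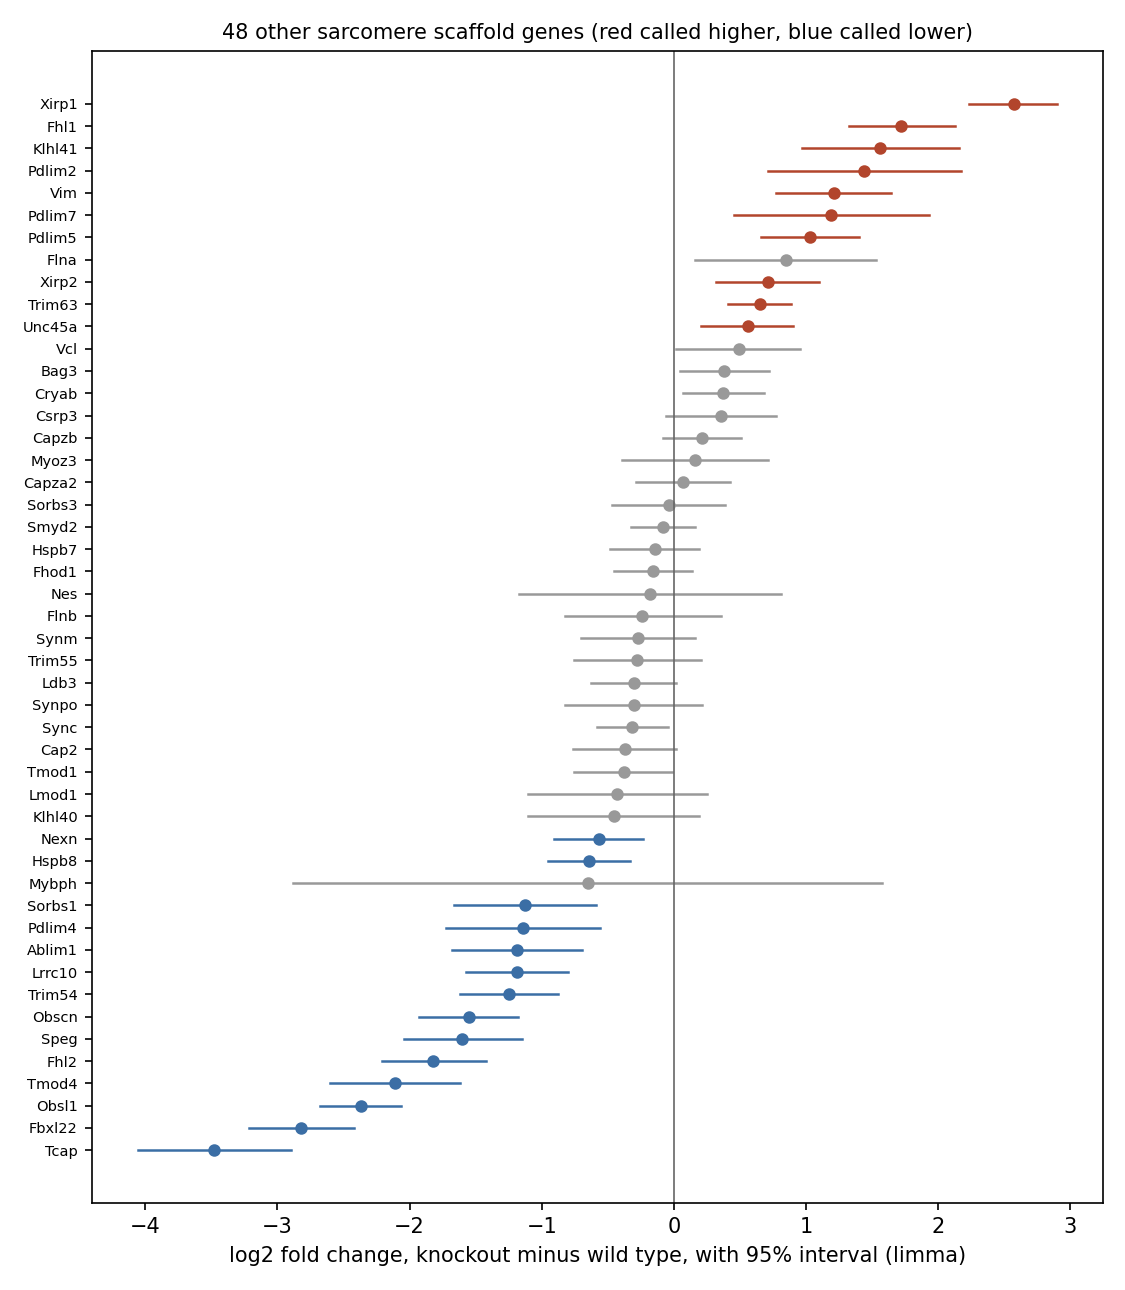
Log2 difference (knockout minus wild type) of 48 other sarcomere scaffold genes with the 95% interval from limma, red for genes called higher, blue for genes called lower and grey for genes not called. Xirp1 lies at the upper end at 2.57 and Tcap at the lower end at -3.48.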

How the data were processed

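Heart samples, 4 knockout and 3 wild type, were measured on arrays of 60-base probes, 1 array each, all on 1 slide and 1 scan. Feature Extraction 10.7.3.1 read the spots, per the file headers. Its processed signal, used here, is an intensity corrected for background and not log-transformed, and the authors deposited it with flags and probe positions. The authors also deposited a processed intensity matrix, used as an alternative, and 99.6% of its cells lay within 0.01 (log2) of the scanner value. Of 59305 spots per array, 82 to 146 outlying ones were left out and 0 were saturated. Replicate spots were averaged, and log2 signal was taken minus the array's 75th percentile, which removes differences in total messenger RNA. A probe entered if 3 or more arrays had it well above background (34481 probes, 60.9%), and each gene was read by its brightest. Probes of other genes were named through RefSeq accessions (32994 matched). The fit was limma 3.58.1 in R 4.3.3 (package data.table, version 1.17.8) of 7 arrays with no covariate. P-values were adjusted by Benjamini-Hochberg over 22971 genes, and the fit was checked on simulated data. There the fit recovered 80.3% of log2 changes of 2, 44.2% of changes of 1 and 1.79% of changes of 0.5, with 5.52% of calls false. The simulation held 200 changed genes among 22941, a far smaller share than the 42.1% called here. The adjustment of p-values depends on that share, so these rates are not those of the fit to the real arrays. A gene that was not called may still have changed. Figures used matplotlib 3.10.9. All 33 members were named, and of the other scaffold genes the 5 largest rises and 5 largest falls among those called. The members and lists were chosen with earlier results of these data known. The number of arrays limits the precision.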

Additional observations from a re-analysis of the deposited data

Results flagged for a closer look

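The knockout arrays of each of the 33 genes were searched for an array far from the other 3, and 2 genes had one, where chance gives about 1 in 20 such groups. Actn3 had 0.0381 in Mutant_187, and 0.05004 to 0.0519 in the other knockout arrays. Synpo2 had 60.9 in Mutant_175, and 46.8 to 47.4 in the other knockout arrays.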

How the results depend on the processing

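Over 21 alternatives the members called higher numbered 7 to 14 and those called lower 9 to 11. Scaling to 7 spike-in probes added 0.57 to the differences, moved the median of all genes to 0.44, and gave 14 members higher and 9 lower, so directions of small changes hold relative to the array's 75th percentile. Of 687 values of single members, 653 kept their call, 16 lost it, 17 gained one and 1 reversed, which was Actn2 at 0.24 with normexp and quantile normalization. Members that were not called could change sign without being called, in 31 values of 11 genes. Calls were lost for Pdlim1 (8 alternatives), Synpo2 (4), Tnni3k (2), Des (1) and Neb without Wild Type_181, Mutant_182 and Mutant_187. Calls were gained for Myom1 (4 alternatives), Myom3 (6), Actn4 (4), Synpo2l (2) and Unc45b (1). Other scaffold genes called higher numbered 17 after quantile normalization, 18 with spike-in scaling, 17 with normexp and 5 without those 3 arrays, against 10, and those called lower numbered 9 with spike-in scaling, against 14. The cause was not tested. Signal over background limits Actn3, Neb and Mybphl, which were near it on some arrays and could not be fitted under some filters. No paired analysis was possible because the groups share no replicate numbers.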
